A study of Homo sapiens with 28 samples.

Results

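Hypoxia-inducible factor (HIF) target genes and the genes of glycolysis were followed in xenografts grown from human renal cell carcinoma cells, in tumours labelled resistant to a VEGF receptor inhibitor and in untreated tumours. The set held 38 genes, chosen by name: 2 genes of HIF alpha subunits, 15 glycolytic genes (12 enzymes and 3 regulators) and 21 other HIF targets. They were 38 of 19775 genes on the array that had a probe set with a single symbol, and each was read from its probe set of highest mean. All 38 passed the filter on dim genes, a signal of 89.4 (6.72 on the log2 scale) on at least 4 arrays, as did 13808 genes in all.

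The study asked which expression changes accompany resistance to VEGF receptor inhibitors. RNA of 28 tumours had been measured on 1-colour Affymetrix arrays, 1 array a tumour. In 786-O there were 5 tumours resistant to sorafenib, a VEGF receptor and RAF kinase inhibitor, with 5 untreated tumours, and 4 tumours resistant to sunitinib, a VEGF and PDGF receptor inhibitor, with 5 untreated tumours of their own. In A498 there were 5 tumours resistant to sorafenib and 4 untreated tumours. Array titles of the sorafenib arm of 786-O open with a different number from those of the other arms, and its meaning is not given. All tumours were grown under the skin of female athymic nude/beige mice, which were 6 to 8 weeks old at injection. Treated mice received sorafenib at 80 mg/kg or sunitinib at 53.6 mg/kg by gavage on 6 days of each week, once a tumour measured 12 mm across. Excision was at 12 mm or at the maximum of 20 mm. Which untreated tumours had which size is not given, so size and treatment cannot be told apart. Each line is a single established culture. Nothing states that each tumour had a mouse of its own. The p-values measure only how much these arrays vary, in which spread between tumours and technical spread are mixed. They treat the tumours as independent, which is not stated.

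HIF is a transcription factor made of an oxygen-labile alpha subunit, HIF-1alpha or HIF-2alpha, and a stable partner, ARNT. In oxygen, prolyl hydroxylases mark the alpha subunit and the VHL protein has it degraded. Both lines lack working VHL, as clear cell renal carcinomas commonly do, so that their HIF stays active in oxygen. 786-O is known to make HIF-2alpha and no working HIF-1alpha protein. The arrays read RNA only, so whether A498 makes working HIF-1alpha protein cannot be read from them. HIF-1alpha is known as the main driver of glycolytic genes, and HIF-2alpha of genes such as CCND1 in renal carcinoma.

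Signals below are the deposited linear values, scaled to 1 trimmed mean on all arrays (500.06 to 500.07). Differences are on the log2(signal + 16) scale, given ± standard error, and understate the change of dim genes. Adjusted p-values come from limma with Benjamini-Hochberg adjustment over 13808 genes, and a gene is said to have risen or fallen only where that value was under 0.05. Levels of different genes were not set against each other, because probe sets differ in binding. Of 8 renal carcinoma markers 6 were read (PAX8, PAX2, VIM, KRT8, KRT18 and CDH6), and each passed the limit in every group. The probes are human, but RNA of the mouse host can bind some of them, and in bulk tissue fewer cells of a type and less RNA per cell cannot be told apart. Fibroblast and pericyte markers summed to 2885 to 4919 in sorafenib-resistant 786-O tumours against 7570.0 to 11009.6 in their untreated tumours, and 5 of 8 tested fell. They summed to 3310.3 to 7483 against 4092 to 8494 in the sunitinib arm, where 1 of 8 fell, and to 10801 to 24746 against 7191 to 16613 in A498, where 0 of 8 were called. Of all genes tested, 9.18% fell with sorafenib in 786-O, 2.84% with sunitinib and 3.4% in A498. Of 10 endothelial markers 6 (CDH5, KDR, VWF, TEK, EMCN and ESAM) lay below the limit on every array. Endothelial sums were 219 to 511 in sorafenib-resistant 786-O tumours against 461 to 557 in untreated ones, and 1 of 2 tested fell. In resistant against untreated tumours they were 268 to 344 against 296 to 500 with sunitinib, and 310 to 450 against 257 to 324 in A498. Skeletal muscle sums were 316 to 751 against 463 to 1776 in the sorafenib arm of 786-O, with 0 of 5 called. Macrophage sums were 579 to 2258 in resistant A498 tumours against 725 to 853 in untreated ones, with 0 of 5 called. The part of host cells in the results below was not tested.

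HIF binds DNA at the core ACGTG or GCGTG, so the promoters are shown for members that differed in their response, taken from RefSeq on GRCh38.p14 (250 bases before to 50 after the start of the gene). Of 38 members 35 had an entry, and BNIP3L, CCND1 and NDRG1 had none. ADM (chr11:10304823-10305122), ANGPTL4 (chr19:8363905-8364204) and ENO2 (chr12:6914330-6914629) rose in at least 1 arm. LDHA (chr11:18394313-18394612) and PGK1 (chrX:78103998-78104297) were called in no arm. All 5 genes lie on the plus strand, and capitals mark ACGTG or GCGTG on either strand, where CACGTG holds ACGTG on both strands and counts as 2 matches.
ADM: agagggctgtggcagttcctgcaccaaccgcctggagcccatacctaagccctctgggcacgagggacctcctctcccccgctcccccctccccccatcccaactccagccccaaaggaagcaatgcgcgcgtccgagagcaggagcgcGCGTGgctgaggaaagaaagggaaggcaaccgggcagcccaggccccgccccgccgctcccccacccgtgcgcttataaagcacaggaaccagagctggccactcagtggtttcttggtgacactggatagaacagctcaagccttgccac
ANGPTL4: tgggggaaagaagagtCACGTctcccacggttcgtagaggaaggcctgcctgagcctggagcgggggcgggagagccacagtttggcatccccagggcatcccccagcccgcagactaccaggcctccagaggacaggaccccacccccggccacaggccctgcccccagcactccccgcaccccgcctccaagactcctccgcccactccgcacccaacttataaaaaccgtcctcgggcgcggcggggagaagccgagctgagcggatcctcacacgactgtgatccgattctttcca
ENO2: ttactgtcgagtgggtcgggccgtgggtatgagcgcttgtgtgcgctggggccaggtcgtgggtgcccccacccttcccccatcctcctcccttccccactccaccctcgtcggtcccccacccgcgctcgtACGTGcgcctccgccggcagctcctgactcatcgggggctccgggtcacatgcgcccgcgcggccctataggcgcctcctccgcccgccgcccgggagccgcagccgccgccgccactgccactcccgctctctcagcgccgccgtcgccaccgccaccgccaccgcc
LDHA: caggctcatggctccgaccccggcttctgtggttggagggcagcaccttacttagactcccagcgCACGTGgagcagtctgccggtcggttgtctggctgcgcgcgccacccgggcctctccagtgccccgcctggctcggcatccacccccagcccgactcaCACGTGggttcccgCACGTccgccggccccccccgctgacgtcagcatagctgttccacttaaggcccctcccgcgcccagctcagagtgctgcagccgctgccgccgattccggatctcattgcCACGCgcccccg
PGK1: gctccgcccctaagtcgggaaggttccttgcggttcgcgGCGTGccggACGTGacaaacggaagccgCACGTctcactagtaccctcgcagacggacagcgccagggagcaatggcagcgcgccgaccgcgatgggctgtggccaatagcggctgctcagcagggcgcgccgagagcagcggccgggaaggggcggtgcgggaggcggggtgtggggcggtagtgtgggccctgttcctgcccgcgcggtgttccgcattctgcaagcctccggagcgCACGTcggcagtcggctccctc
The window held 1 match each in ADM, ANGPTL4 and ENO2, 6 in LDHA and 4 in PGK1. A match was found in 28 of 35 member promoters (80.0%), and in 48.4% of all 27305 promoters of that length. It was found in 11 of 12 members that rose in at least 1 arm and in 17 of 23 members that rose in none, with a median of 1 match in both. The number of matches ran from 0 to 4 in the first and from 0 to 6 in the second. BHLHE40, DDIT4 and LOX, which rose in both 786-O arms, held 4 each, while TPI1 and PGAM1, called in no arm, held 0. A match is only these letters, not a site shown to be bound. By class, 11 of 15 glycolytic promoters (73.3%) and 15 of 18 other HIF target promoters (83.3%) held a match.

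In 786-O tumours resistant to sorafenib 10 of the 38 members rose and 1 fell, against 5.97% of all genes tested that rose and 9.18% that fell. The rises were in EPAS1, in 8 of 21 other HIF targets and in 1 of 15 glycolytic genes. In sunitinib-resistant 786-O tumours 9 members rose and 0 fell by limma (14 and 0 at an unadjusted p under 0.05), where 2.22% of all genes rose and 2.84% fell. These were EPAS1, 7 other HIF targets and 1 glycolytic gene. In A498 3 members rose and 1 fell, where 2.93% of all genes rose and 3.4% fell, and here 2 of the 3 rises were glycolytic. Across the arms, 9 members rose in at least 2 (1.7% of all genes), 0 in all 3 (0.152%), and 0 were called in opposite directions (0.275%). Called in no arm were 23 members, and by the shares above most genes tested were too.

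**Figure D1:**
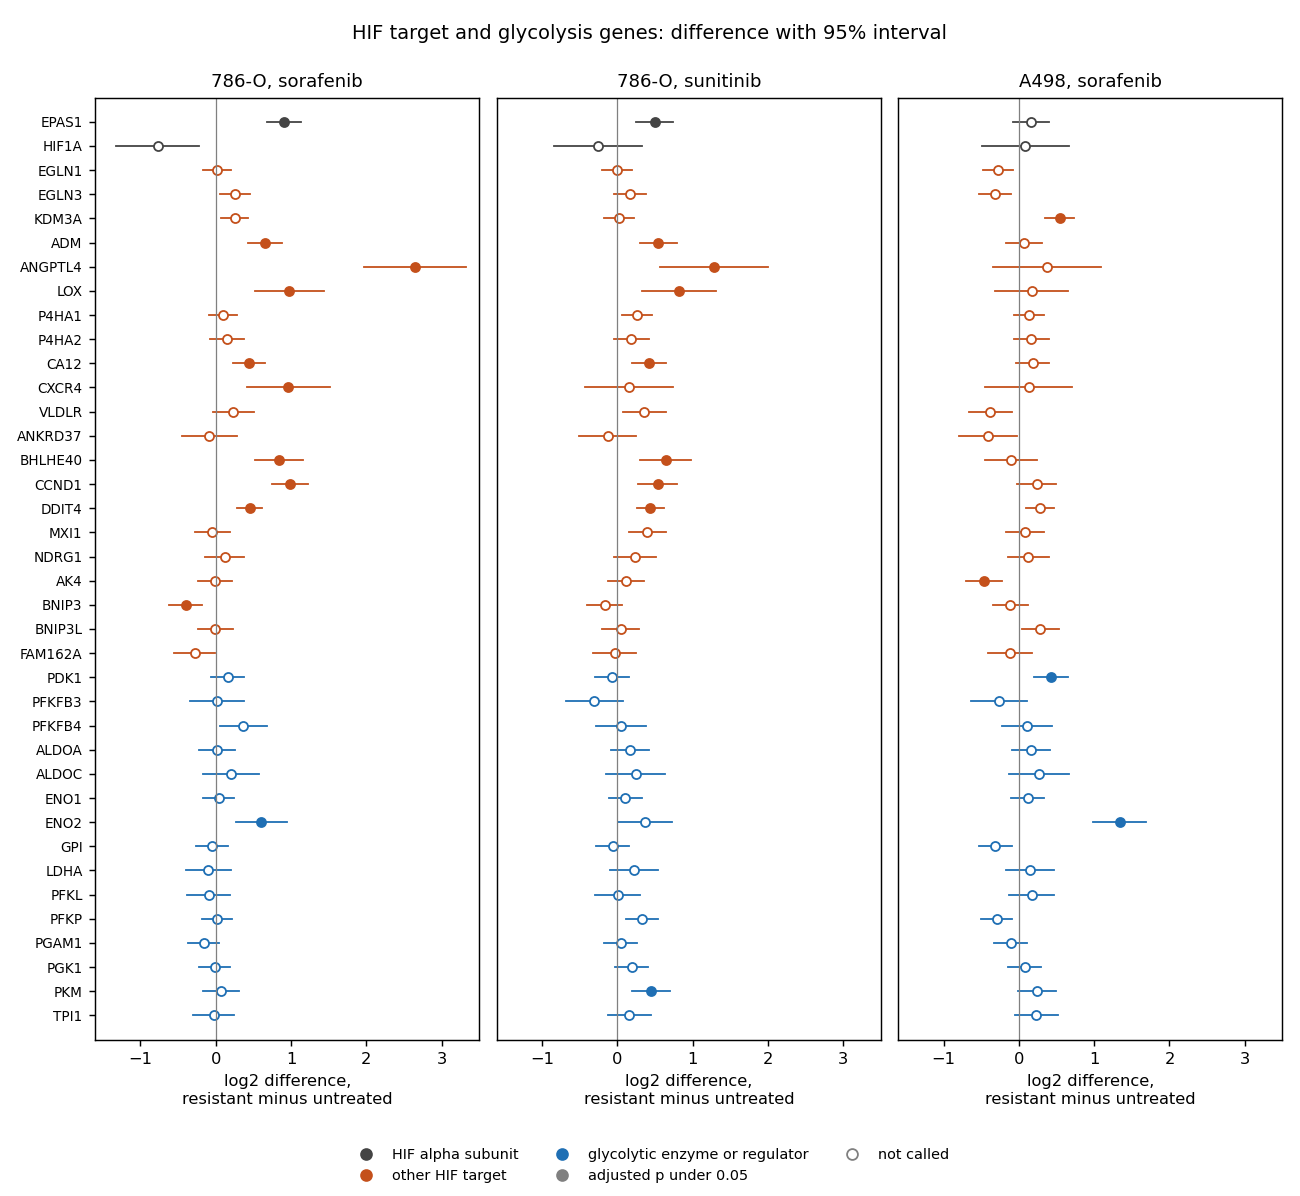
Log2 difference, resistant minus untreated, with its 95% interval for all 38 members in the 3 arms; filled points have an adjusted p under 0.05, open points do not. In both 786-O panels the filled points lie mostly among the orange other HIF targets, led by ANGPTL4 at 2.65 and 1.29. Of the blue glycolytic genes only ENO2 with sorafenib (0.61) and PKM with sunitinib (0.45) are filled there. In A498 the filled points are ENO2, KDM3A, PDK1 and AK4.

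The median difference of the 21 other HIF targets was 0.23 in both 786-O arms, where the median of all genes tested was -0.05 with sorafenib and -0.01 with sunitinib. With the mean of probe sets it was 0.12 in the sorafenib arm. The glycolytic median was 0.02 with sorafenib and 0.16 with sunitinib, the second being 0.066 without resistant replicate 1, 0.09 without resistant replicate 3, 0.092 with untreated 786-O tumours pooled and 0.026 to 0.05 under quantile normalisation or other choices of probe sets. In A498 the medians were 0.12 for other HIF targets, 0.15 for glycolytic genes and 0.03 for all genes. Without A498 untreated replicate 3 those medians were 0.042 for other HIF targets and 0.038 for glycolytic genes, and without resistant replicate 2 they were 0.036 and 0.094. Without untreated replicate 1 that of other HIF targets was 0.073. With quantile normalisation they were 0.012 and 0.047, with the mean of probe sets 0.043 and 0.054, and with array weights 0.049 and 0.095. Averaged over the 21 other HIF targets, the log2 signal of single arrays ran from 12.10 to 12.22 in sorafenib-resistant 786-O tumours, against 11.69 to 11.82 in untreated ones. It ran from 12.08 to 12.21 in sunitinib-resistant tumours, against 11.74 to 11.98. Neither pair of ranges overlapped, while in A498 they did, at 12.32 to 12.60 in resistant and 12.20 to 12.47 in untreated tumours. The mean over the 15 glycolytic genes overlapped in every arm, at 12.33 to 12.49 in resistant against 12.26 to 12.37 in untreated tumours of the sorafenib arm of 786-O. For glycolytic genes it lay at 12.30 to 12.53 against 12.17 to 12.33 in the sunitinib arm, and at 11.93 to 12.16 against 11.70 to 11.95 in A498.

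EPAS1, the gene of HIF-2alpha, rose in both 786-O arms. Its signal was 8235, 7198, 7706, 8667 and 7925 in sorafenib-resistant 786-O tumours, against 4334, 4505, 4175, 4076 and 4067 in their untreated tumours. The groups did not overlap, and the difference was 0.90 ± 0.11 (limma adjusted p = 3.13e-06). In the sunitinib arm EPAS1 had 4970.1, 4998, 6596 and 6506 in resistant and 4108, 3647, 3631, 4589.9 and 4357 in untreated tumours. Again every resistant tumour lay above every untreated one, and the difference was 0.50 ± 0.12 (adjusted p = 0.0143). A498 tumours had 8728, 13797, 12448, 10416 and 10275 when resistant and 11098, 9757, 9593 and 8930.1 when untreated, which overlap, with a difference of 0.16 ± 0.12 (adjusted p = 0.457). A dimmer probe set of EPAS1 gave 0.64 with sorafenib and 0.46 with sunitinib in 786-O (adjusted p = 0.0625 and 0.316 in a fit over all probe sets), and a further one lay below the limit. With the mean of all its probe sets EPAS1 was called in neither arm.

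HIF1A, the gene of HIF-1alpha, was called in no arm. In 786-O it was dim, at 251, 161, 237, 299.6 and 179 in sorafenib-resistant tumours against 445, 411, 307, 565 and 270.0 in untreated ones, which overlap (-0.77 ± 0.27, adjusted p = 0.052). Without 786-O sorafenib-resistant replicate 4, or without untreated replicate 3 or 5 of that arm, that difference passed the threshold, and over all alternatives its adjusted p lay between 0.024 and 0.361. The sunitinib arm had 429, 74.1, 142 and 210.1 in resistant and 256, 197, 249, 164 and 231 in untreated tumours, where the resistant group holds both the highest and the lowest value. In A498 HIF1A stood far higher in all tumours, at 10813, 10994, 11215, 10255 and 10714 in resistant and 10558, 10635, 8591 and 11085 in untreated ones, with a difference of 0.09 ± 0.28.

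**Figure D2:**
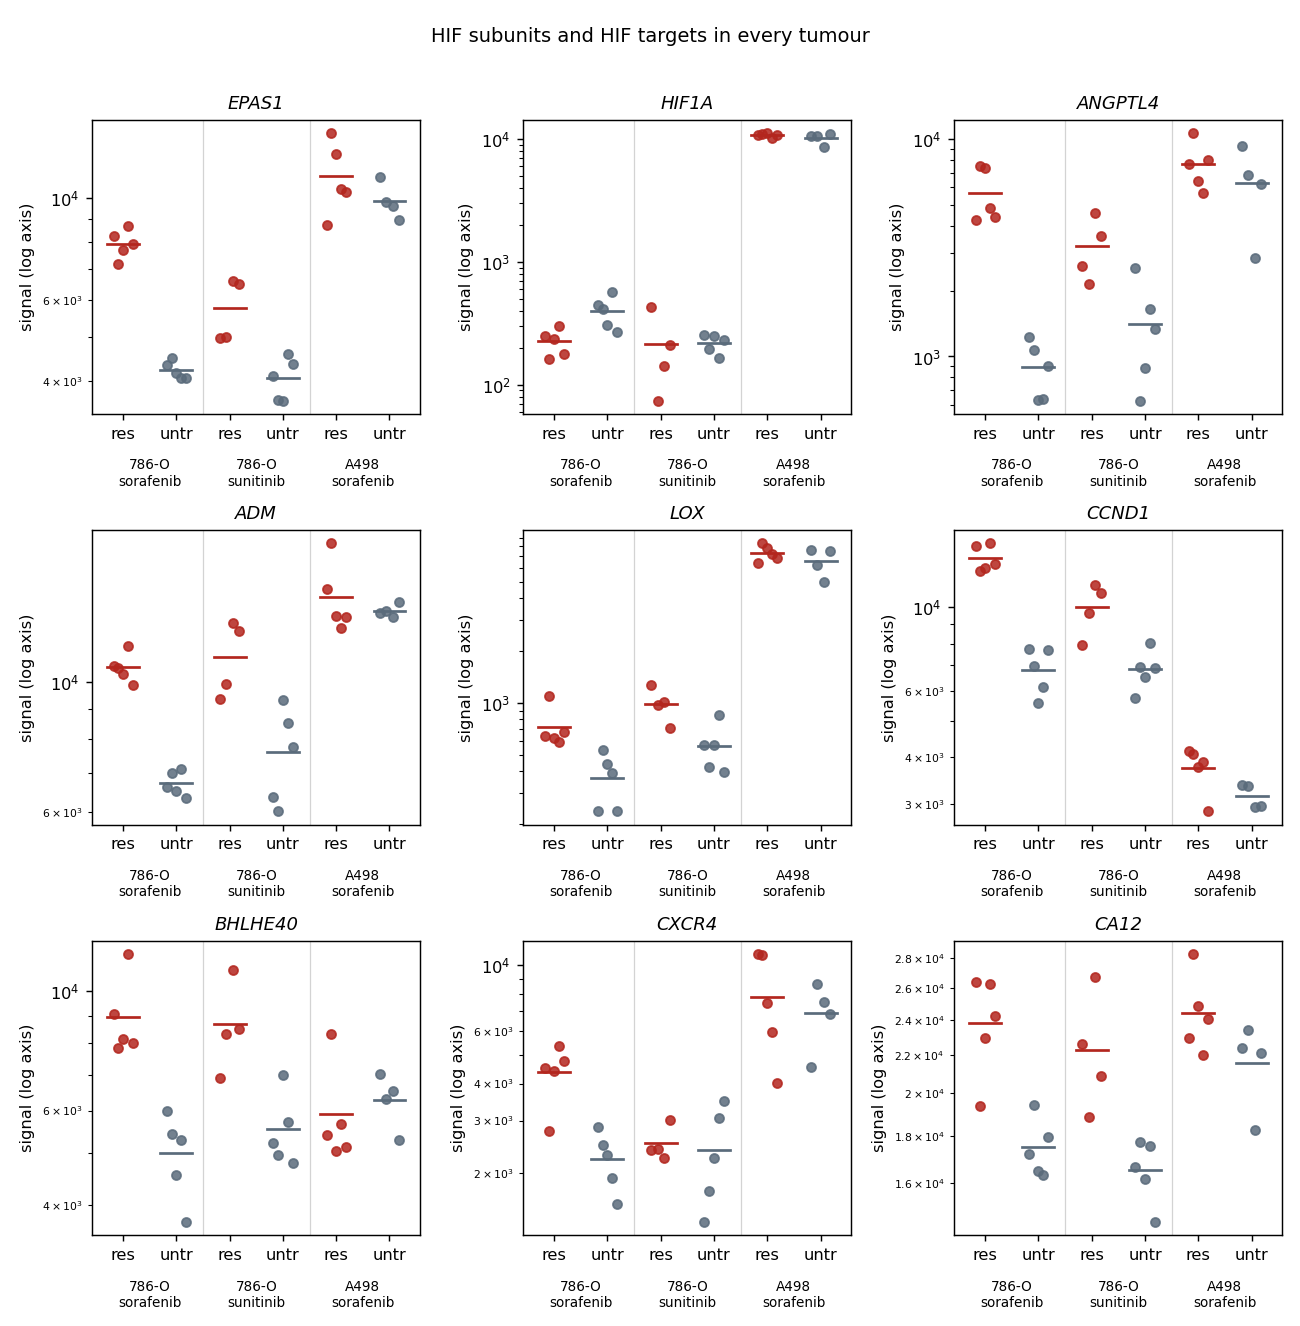
Signal of EPAS1, HIF1A, ANGPTL4, ADM, LOX, CCND1, BHLHE40, CXCR4 and CA12 in every tumour on log axes; res and untr stand for resistant and untreated, points are tumours and bars are group means. In 786-O the resistant points of EPAS1, ADM and CCND1 lie mostly or wholly above the untreated ones in both arms, whereas in A498 the groups overlap for all 9 genes plotted.

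Among the secreted and matrix members, 3 of 5 rose in each 786-O arm and 0 of 5 in A498. Of all genes 5.97% rose with sorafenib and 2.22% with sunitinib in 786-O, and 2.93% in A498. ANGPTL4, a secreted inhibitor of lipoprotein lipase, had the largest difference of all members in the sorafenib arm. Its signal was 4269.9, 7509, 7370.2, 4852 and 4377 in sorafenib-resistant 786-O tumours, against 1229, 1076, 629, 638 and 901 in untreated ones. Every resistant tumour lay above every untreated one, and the difference was 2.65 ± 0.33 (adjusted p = 4.04e-06). With sunitinib ANGPTL4 was at 2600.4, 2165, 4579.9 and 3577 in resistant and 2563, 625, 889, 1649 and 1341 in untreated tumours. Here 1 untreated tumour lay among the resistant ones, and the gene rose by 1.29 ± 0.35 (adjusted p = 0.0304). A498 had 7668, 10704, 6453, 5659 and 8014 in resistant and 9277, 6828, 2847 and 6205 in untreated tumours, with wide overlap (0.38 ± 0.35, adjusted p = 0.582). A dimmer probe set of ANGPTL4 gave 2.89 with sorafenib and 1.01 with sunitinib in 786-O (adjusted p = 1.01e-06 and 0.0971 in the fit over all probe sets).

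ADM encodes adrenomedullin, a vasodilating peptide. It was at 10646, 10579, 10329, 11529 and 9874 in sorafenib-resistant 786-O tumours and at 6619, 7000.0, 6519, 7094 and 6352 in untreated ones. With sunitinib it was at 9368, 9918, 12620.4 and 12224 in resistant and 6369, 6015, 9299, 8498 and 7758 in untreated tumours. The groups overlapped in neither arm, and ADM rose by 0.66 ± 0.11 (adjusted p = 0.000168) and 0.55 ± 0.12 (adjusted p = 0.00748). In A498 ADM had 14386, 17233, 12975, 12385 and 12919.6 in resistant and 13102, 13234, 12911 and 13694 in untreated tumours, so that 3 of 5 resistant tumours lay within or below the untreated range. LOX encodes lysyl oxidase, which cross-links collagen. In the sorafenib arm of 786-O its signal was 637, 1089, 626, 589 and 678 in resistant and 235, 535, 439.9, 393 and 237 in untreated tumours, without overlap (0.98 ± 0.22, adjusted p = 0.00337). In the sunitinib arm it was 1259, 971, 1007 and 716 in resistant and 567, 427, 569, 849 and 398 in untreated tumours, with 1 untreated tumour among the resistant ones (0.82 ± 0.24, adjusted p = 0.0424). A498 had 6387, 8319, 7869, 7264 and 6849.6 in resistant and 7594, 6263, 4967 and 7510.2 in untreated tumours, which overlap. The probe sets of LOX disagreed with sorafenib, where the other pair gave -0.26 and -0.04 and the mean of all probe sets had an adjusted p of 0.588. With sunitinib the other pair gave 0.56 (adjusted p = 0.0685 in a fit over all probe sets) and -0.0052, beside 0.82 (0.0534 in that fit) for the set used, and the mean of all probe sets had an adjusted p of 0.33. P4HA1 and P4HA2, subunits of the collagen prolyl hydroxylase, were called in no arm, with differences between 0.09 (P4HA1, 786-O sorafenib) and 0.27 (P4HA1, 786-O sunitinib). A dimmer probe set of P4HA2 gave 0.42 with sorafenib in 786-O and 0.57 in A498 (adjusted p = 0.0374 and 0.0196 in the fit over all probe sets).

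CA12, CXCR4 and VLDLR act at the cell surface. CA12, a carbonic anhydrase that regulates pH outside the cell, was at 26357, 19375, 22933, 26259.6 and 24208 in sorafenib-resistant 786-O tumours against 17216, 19424, 16485, 16342 and 17957 in untreated ones, where 1 resistant tumour lay below the highest untreated one. It was at 22598, 18834, 26674 and 20895 in sunitinib-resistant tumours against 16664, 17738, 16143, 17527 and 14526, without overlap. The gene rose by 0.44 ± 0.10 (adjusted p = 0.00405) and 0.42 ± 0.11 (adjusted p = 0.0232). In A498 it was at 22958, 28264, 24812, 21989.5 and 24020.0 in resistant and 22404, 23424, 18257 and 22088 in untreated tumours (0.18 ± 0.11, adjusted p = 0.353). CXCR4, a chemokine receptor, rose with sorafenib in 786-O, at 4361 ± 964 in resistant and 2220.0 ± 497 in untreated tumours (SD, n = 5 and 5; 0.97 ± 0.27, limma adjusted p = 0.0149). That call was lost (0.77, adjusted p = 0.113) without the 2 arrays of highest ACTB 3-prime minus 5-prime difference, a sign of RNA degradation: 786-O sorafenib-resistant replicate 4 (0.674) and untreated replicate 5 (1.03). The other probe sets of CXCR4 gave 0.70 and 0.67 in that arm (adjusted p = 0.0791 and 0.0924 in the fit over all probe sets). VLDLR, a lipoprotein receptor, was called in no arm, with differences of 0.23 (sorafenib) and 0.36 (sunitinib) in 786-O and -0.38 in A498.

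Of 6 members that act in transcription and growth control, BHLHE40, CCND1 and DDIT4 rose in both 786-O arms and 0 were called in A498. Of all genes 5.97% rose with sorafenib and 2.22% with sunitinib in 786-O, and in A498 2.93% rose and 3.4% fell. CCND1 encodes cyclin D1, which drives entry into the cell cycle. It had 14477, 12468, 12647, 14721 and 12971 in sorafenib-resistant 786-O tumours against 7731, 6984, 5574, 6121 and 7708 in untreated ones, and 7909, 9633, 11440.5 and 10880.5 in sunitinib-resistant tumours against 5742, 6945, 6533, 8026 and 6904. The first pair of groups did not overlap, while the lowest sunitinib-resistant tumour lay below the highest untreated one, and CCND1 rose by 0.99 ± 0.12 (adjusted p = 2.53e-06) and 0.54 ± 0.13 (adjusted p = 0.0128). In A498 it was at 4143, 4089.7, 3765, 3887 and 2876 in resistant tumours, with replicate 5 below all others, and at 3384, 3348, 2959 and 2973 in untreated ones (0.23 ± 0.13). A dimmer probe set of CCND1 gave 1.06 with sorafenib and 0.19 with sunitinib in 786-O (adjusted p = 0.00153 and 0.715 in the fit over all probe sets). BHLHE40, a repressor of transcription, had 9064, 7832, 8157, 11738 and 8002 in sorafenib-resistant 786-O tumours against 5980.4, 5428, 4549, 5280.3 and 3723 in untreated ones. The groups did not overlap, and it rose by 0.84 ± 0.16 (adjusted p = 0.000473). With sunitinib BHLHE40 had 6913, 8331, 10951 and 8519 in resistant and 5231, 4950.1, 6998, 5702 and 4793 in untreated tumours (0.64 ± 0.17, adjusted p = 0.0233). In A498 it had 5393, 8327, 5046, 5669 and 5139 in resistant and 7023, 6302, 6516 and 5294 in untreated tumours, where 1 resistant tumour lay far above the other 4.

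DDIT4 is an inhibitor of the growth kinase mTORC1. Its signal was 20662, 16331, 16662, 18749.9 and 18095 in sorafenib-resistant 786-O tumours and 13048, 13756, 12798, 11869.7 and 14626 in their untreated tumours, and 17268, 16994, 19412 and 17500.2 in sunitinib-resistant tumours and 12383, 11949, 13098, 14668 and 13729 in theirs. Resistant and untreated tumours did not overlap in either arm, and the rises were 0.45 ± 0.08 (adjusted p = 0.000427) and 0.44 ± 0.09 (adjusted p = 0.00507). A498 had 10523, 11549, 11276, 11254 and 11860.2 in resistant and 8333, 10110.4, 8634 and 10208 in untreated tumours. These did not overlap either, at 0.28 ± 0.09 with an adjusted p of 0.0542, which missed the threshold. The other 3 of this role were called in no arm: MXI1, an antagonist of MYC, NDRG1, a stress-response protein, and ANKRD37. Their differences lay between -0.41 (ANKRD37 in A498) and 0.40 (MXI1 with sunitinib, adjusted p = 0.0544).

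Of the mitochondrial and cell death members, 1 fell in A498 and 1 with sorafenib in 786-O (3.4% and 9.18% of all genes), and no other call was made. AK4, a mitochondrial adenylate kinase, fell in A498. There it was at 5351, 6623, 4649.5, 5082 and 4675 in resistant and 9373, 6807, 5714 and 7346 in untreated tumours, which overlap (-0.46 ± 0.12, adjusted p = 0.0185). In 786-O AK4 was at 8247, 7044, 7612, 7006 and 6563 in sorafenib-resistant and 7024, 6980.2, 7398, 6759 and 8394 in untreated tumours, and at 7546, 7576, 8477 and 7515 in sunitinib-resistant and 7750.2, 7557, 6539, 7044 and 7087 in untreated tumours. These groups overlap, and the differences were -0.0034 and 0.11. BNIP3, which drives the removal of mitochondria, fell with sorafenib in 786-O, at 3201 ± 574 in resistant and 4167 ± 239 in untreated tumours (SD, n = 5 and 5; -0.40 ± 0.10, adjusted p = 0.011), a call lost without the 2 arrays of highest ACTB difference (-0.24, adjusted p = 0.0864). With the mean of both probe sets (-0.37) or only the arrays of the arm (-0.40) it missed the threshold at a similar size. BNIP3L, its relative, and FAM162A, a mitochondrial cell death factor, had differences between -0.28 (FAM162A, 786-O sorafenib) and 0.28 (BNIP3L, A498).

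Of the oxygen sensing and chromatin members, KDM3A rose in A498, where 2.93% of all genes rose. KDM3A, a histone demethylase, had 2059, 2623, 2596, 2576 and 2889 in resistant and 1475, 1809, 1868 and 1829 in untreated A498 tumours. The groups did not overlap, and the difference was 0.54 ± 0.09 (adjusted p = 0.00118). It was lost with the mean of both probe sets (0.02), of which the other lay below the limit. In 786-O KDM3A had 1092, 1211, 1099, 1069 and 1234 in sorafenib-resistant and 966, 827, 933, 1025 and 1032 in untreated tumours (0.25 ± 0.09, adjusted p = 0.0553). With sunitinib it had 1090.3, 1055, 991 and 1014 in resistant and 1051, 1078, 909.7, 1083 and 992 in untreated tumours (0.02 ± 0.09). EGLN1 and EGLN3, the prolyl hydroxylases that mark HIF alpha subunits, were called in no arm by the probe sets used. EGLN3 differed by 0.25 in 786-O with sorafenib, 0.16 with sunitinib and -0.32 in A498, and EGLN1 by 0.02, -0.0016 and -0.28. Other probe sets did pass in the fit over all probe sets, 1 of EGLN3 with sorafenib in 786-O (0.41, adjusted p = 0.0321) and 1 of EGLN1 in A498 (-0.49, adjusted p = 0.034).

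Glycolysis turns glucose into pyruvate. Of its 15 members here, 12 were called in no arm. Among them were GPI, PFKL, PFKP, ALDOA, ALDOC, TPI1, PGK1, PGAM1, ENO1 and LDHA, which catalyse steps from glucose-6-phosphate to lactate. Most genes tested were called in no arm as well. With sorafenib in 786-O 5.97% of all genes rose and 9.18% fell. The shares were 2.22% and 2.84% with sunitinib and 2.93% and 3.4% in A498. In the sorafenib arm of 786-O the 12 enzymes differed by -0.16 (PGAM1) to 0.61 (ENO2), with 6 above 0. In the sunitinib arm they differed by -0.06 (GPI) to 0.45 (PKM), with 11 above 0, and in A498 by -0.31 (GPI) to 1.34 (ENO2), with 9 above 0. The 95% interval for LDHA, lactate dehydrogenase, ran from -0.39 to 0.20 with sorafenib and from -0.09 to 0.54 with sunitinib in 786-O, and from -0.17 to 0.47 in A498. For PGK1, which makes ATP in glycolysis, it ran from -0.22 to 0.19, -0.02 to 0.41 and -0.14 to 0.30 in the same order.

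ENO2, the neuronal form of enolase, was the glycolytic member that rose in 2 arms. In 786-O it had 3486, 3731, 3574, 2859.9 and 2752 in sorafenib-resistant and 2693, 2396, 2376, 1779 and 1610.3 in untreated tumours, without overlap (0.61 ± 0.16, adjusted p = 0.012). With sunitinib it had 2931, 3022, 3059 and 3509 in resistant and 2236, 2453, 2469, 2649 and 2279.6 in untreated tumours. These groups did not overlap either, but the difference of 0.37 ± 0.17 missed the threshold (adjusted p = 0.24). A498 tumours were dim for ENO2, at 148, 257, 241, 263 and 214 in resistant and 53.2, 102, 102 and 63.0 in untreated ones. Of the untreated tumours 2 lay below the limit of 89.4, every resistant tumour lay above it, and the difference was 1.34 ± 0.17 (adjusted p = 4.78e-05).

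PKM, pyruvate kinase, rose with sunitinib. It was at 18666, 14898, 20015 and 15697 in sunitinib-resistant 786-O tumours against 14047, 14963, 11554, 13419 and 9622 in untreated ones, which overlap by 1 tumour on either side (0.45 ± 0.12, adjusted p = 0.0307). With sorafenib PKM was at 20130.0, 16109, 16717, 16918 and 14976 in resistant and 16743, 16588, 14815, 16436 and 16025 in untreated 786-O tumours (0.07 ± 0.12), while a far dimmer probe set of PKM gave 0.64 there (adjusted p = 0.0418 in the fit over all probe sets). In A498 it was at 9583, 11096, 10016, 13325 and 11574 in resistant and 8229, 10000.1, 9933 and 9471 in untreated tumours (0.24 ± 0.12, adjusted p = 0.278). PDK1, a kinase that holds pyruvate back from the mitochondria, rose in A498. There it had 885, 835, 943, 951 and 1089 in resistant and 754, 608, 702 and 708 in untreated tumours, without overlap (0.43 ± 0.11, adjusted p = 0.0196). Dimmer probe sets of PDK1 gave 0.46 and 0.07 in A498 (adjusted p = 0.349 and 0.865 in the fit over all probe sets). The call of PDK1 was lost with the mean of probe sets or only that arm's arrays, where ENO2 alone rose. In 786-O PDK1 had 1068, 972, 996, 1228 and 1118 in sorafenib-resistant and 924, 1109, 887, 812 and 1098 in untreated tumours, which overlap. With sunitinib it had 782, 879, 1005 and 959.9 in resistant and 999, 1078, 874, 806 and 1025 in untreated tumours, which overlap too. PFKFB3 and PFKFB4, which set the level of an activator of phosphofructokinase, were called in no arm, with differences between -0.31 (PFKFB3, sunitinib) and 0.37 (PFKFB4, sorafenib in 786-O).

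**Figure D3:**
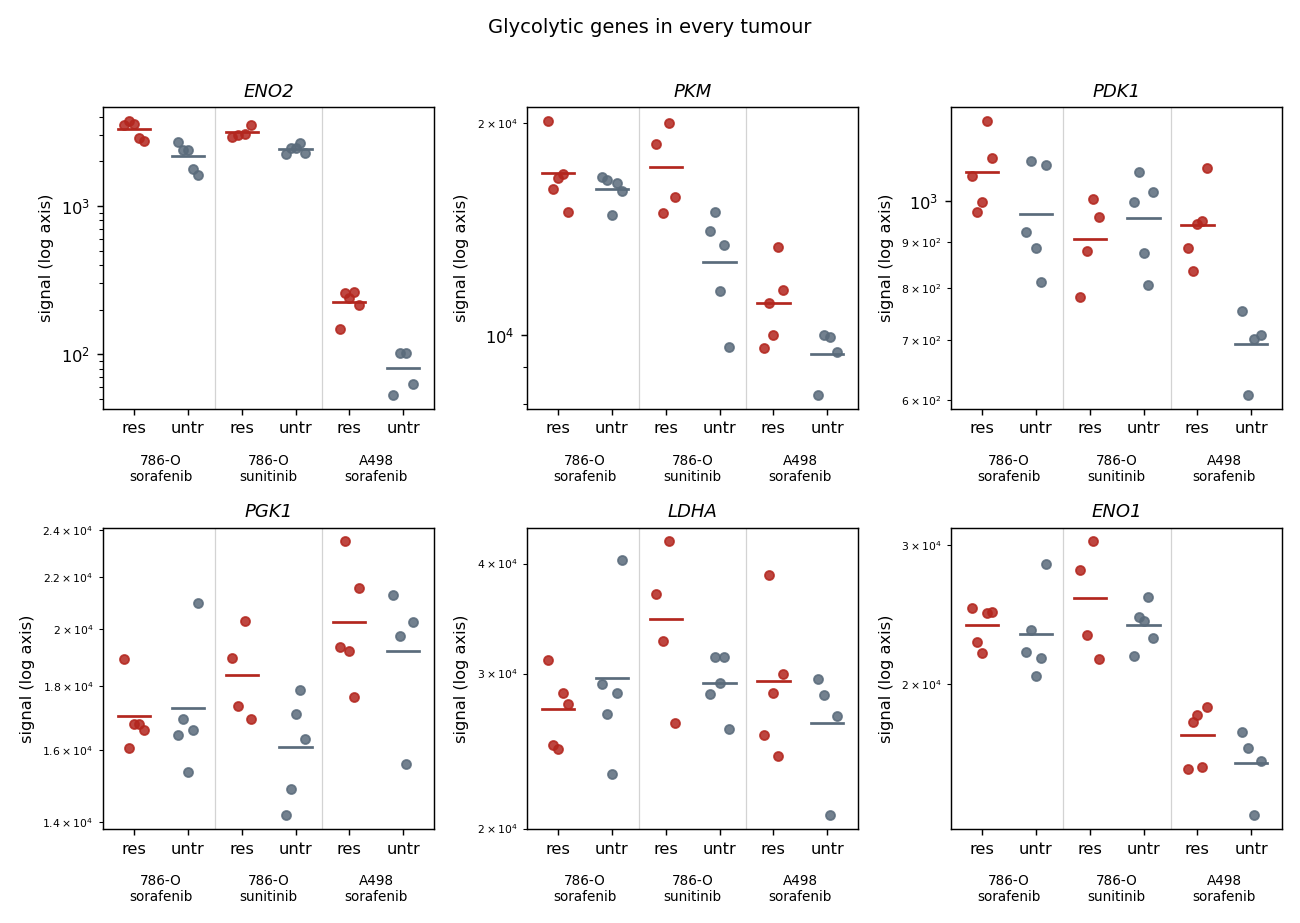
Signal of 6 glycolytic genes in every tumour on log axes; res and untr stand for resistant and untreated, points are tumours and bars are group means. ENO2 separates the groups in all 3 arms but is dim in A498 (53.2 to 263), PDK1 separates them in A498, and PGK1, LDHA and ENO1 overlap in every arm.

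The calls above depended on single tumours to different degrees. In the sorafenib arm of 786-O, ADM, ANGPTL4, BHLHE40, CA12, DDIT4, CCND1 and ENO2 were called under all 23 alternatives. In the sunitinib arm, the number of members that rose was 2 (ADM and DDIT4) without sunitinib-resistant replicate 3, and 0 when only the 9 arrays of that arm were fitted. Without sunitinib-resistant replicate 4 the calls of EPAS1, ANGPTL4, BHLHE40 and CCND1 were lost, without replicate 1 those of LOX and PKM, and without replicate 2 that of LOX. Leaving out untreated replicate 1, 2, 3 or 5 of that arm lost 2 to 4 calls among LOX, BHLHE40, ANGPTL4, CA12 and PKM. Skeletal muscle markers summed to 755 to 1632 in sunitinib-resistant and 354 to 1125 in untreated tumours of that arm, with 0 of 5 called, and their part in the glycolytic median was not tested. In A498 ENO2 was called under all 21 alternatives. AK4 was lost without untreated replicate 1 or resistant replicate 3, and PDK1 without untreated replicate 2 or resistant replicate 5. The number of members that rose in A498 was 5 without resistant replicate 1, with BNIP3L and DDIT4 added, and the number that fell was 4 without untreated replicate 3, with EGLN3, VLDLR and GPI added.

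The effects of both drugs in 786-O were then compared by their difference, sorafenib effect minus sunitinib effect. By limma 0 of 38 members were called, where 0.949% of all genes were, and 7 had an unadjusted p under 0.05. The largest difference was in ANGPTL4, at 1.36 ± 0.48 (95% interval 0.37 to 2.35, adjusted p = 0.177). For CCND1 the interval ran from 0.09 to 0.80 and for EPAS1 from 0.08 to 0.74, both above 0 before adjustment. It ran from -0.22 to 0.44 for ADM and from -0.23 to 0.26 for DDIT4, which both contain 0. The design does not show that the drugs acted alike, since differences of these sizes lie within the intervals. Within an arm, resistant and untreated tumours share the leading number of their array titles. Between the drug arms that number differs, so drug and title number cannot be told apart here.

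The effect of sorafenib differed between the lines for 6 members, all lower in A498 than in 786-O, where 2.17% of all genes were lower and 3.02% higher. The leading number of the array titles also differs between these arms, so line and title number cannot be told apart here. Mean ACTB 3-prime minus 5-prime differences were 0.45 in both 786-O groups, and 0.13 (untreated) and 0.14 (resistant) in A498. EPAS1 had a difference of 0.16 in A498 and 0.90 in 786-O, which differ by -0.74 ± 0.16 (adjusted p = 0.00858). For ANGPTL4 the effects were 0.38 in A498 and 2.65 in 786-O (-2.27 ± 0.48, adjusted p = 0.00713). CCND1 had 0.23 in A498 and 0.99 in 786-O (-0.75 ± 0.17, adjusted p = 0.0118). The remaining 3 were BHLHE40 (-0.95 ± 0.23), ADM (-0.59 ± 0.16) and EGLN3 (-0.57 ± 0.14), with adjusted p-values of 0.0156, 0.0326 and 0.0191. Of the 15 glycolytic members 0 were called by limma, and 2 had an unadjusted p under 0.05. ENO2 came nearest, with a larger effect in A498 (0.73 ± 0.24, adjusted p = 0.0712), and it passed the threshold without A498 resistant replicate 1, A498 untreated replicate 2 or 3, or 786-O untreated replicate 5. Without the 2 arrays of highest ACTB difference, 3 members instead of 6 were called lower, ANGPTL4 and CCND1 among them. Most of EPAS1, BHLHE40, ADM and EGLN3 thus lost their call in that fit. ANGPTL4 and CCND1 kept their call under all 32 alternatives, whereas ADM lost it under 11. Those included leaving out A498 untreated replicate 1, 2 or 4, A498 resistant replicate 3, 4 or 5, 786-O resistant replicate 4 or 786-O untreated replicate 5.

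**Figure D4:**
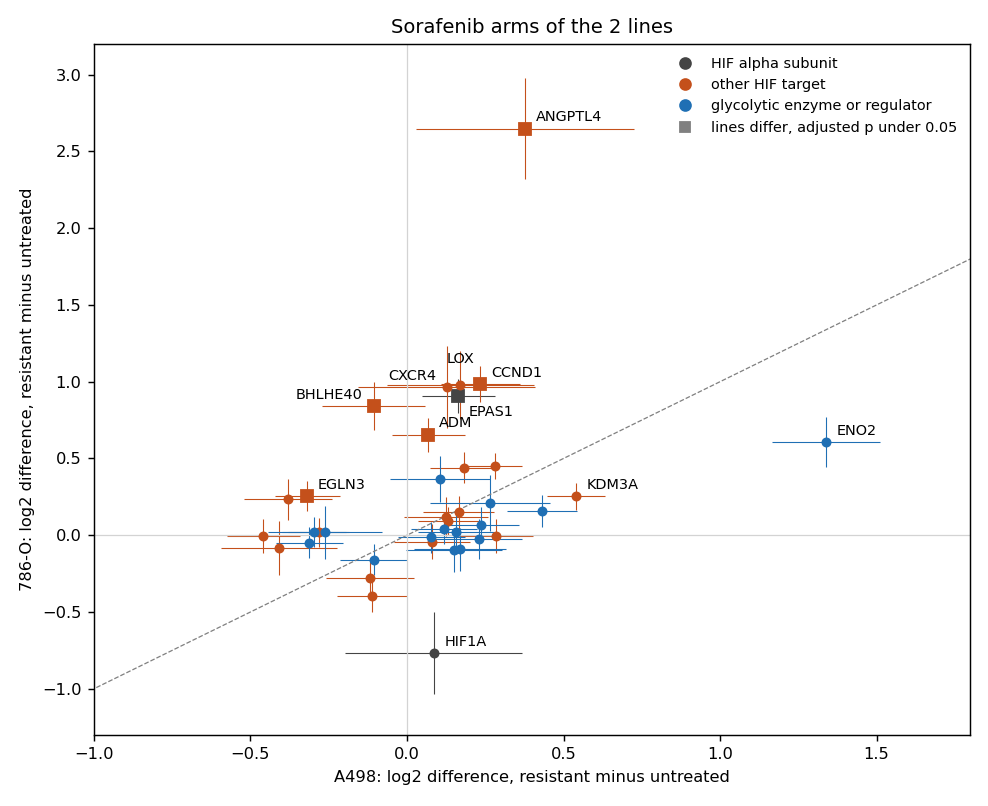
Effect of sorafenib on the 38 members in A498 (x axis) and 786-O (y axis), each the log2 difference of resistant minus untreated with bars of 1 standard error; squares mark members whose effects differ between the lines. The 6 squares all lie above the dashed line of equal effects, with ANGPTL4 at 0.38 in A498 and 2.65 in 786-O.

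Untreated A498 tumours were compared with the untreated 786-O tumours of the sunitinib arm, and 15 members were higher and 11 lower in A498, where 27.3% of all genes were higher and 30.6% lower. Most genes tested thus differed between the lines, members or not. The sunitinib arm was taken because its array titles share their leading number with those of A498. Both HIF subunits were higher, HIF1A at 10217 ± 1108 in A498 and 219 ± 38.6 in 786-O (SD, n = 4 and 5; 5.45 ± 0.28, limma adjusted p = 2.31e-14). EPAS1 was at 9845 ± 909 in A498 and 4067 ± 426 in 786-O (1.27 ± 0.12, adjusted p = 9.4e-10). Neither gene overlapped between the lines. These are RNA levels and do not show the amount or activity of HIF protein in either line.

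Of the 21 other HIF targets 10 were higher and 4 lower in untreated A498, beside 27.3% of all genes higher and 30.6% lower. The largest were LOX, at 6584 ± 1238 in A498 and 562 ± 179 in 786-O (3.54 ± 0.24), ANKRD37 (2.92 ± 0.18), ANGPTL4 (2.19 ± 0.35) and CXCR4 (1.57 ± 0.28). BNIP3, EGLN1, KDM3A, ADM, CA12 and MXI1 were higher by 0.38 (CA12) to 0.82 (ADM). CCND1 was lower, at 3166 ± 232 in A498 and 6829.9 ± 825 in 786-O (-1.10 ± 0.13, adjusted p = 3.82e-08), as were P4HA1 (-0.73 ± 0.10), DDIT4 (-0.50 ± 0.09) and P4HA2 (-0.33 ± 0.11). So of the 7 other HIF targets that rose in both 786-O arms, ADM, ANGPTL4, CA12 and LOX were higher in untreated A498, CCND1 and DDIT4 were lower, and BHLHE40 was not called (0.19 ± 0.17). For LOX, both other probe sets were also higher in A498, by 2.51 and 2.79.

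Of the 15 glycolytic members 3 were higher and 7 lower in untreated A498, beside 27.3% of all genes higher and 30.6% lower. ENO2 showed the widest gap, with 80.1 ± 25.8 in A498 and 2417 ± 165 in 786-O (-4.70 ± 0.17, adjusted p = 2.01e-17). The 3 regulators were all lower in A498: PFKFB3 (-1.34 ± 0.18), PFKFB4 (-0.77 ± 0.16) and PDK1 (-0.45 ± 0.11). PFKP (-0.60 ± 0.10), ENO1 (-0.58 ± 0.11) and PKM (-0.42 ± 0.12) were lower too. ALDOC, an aldolase, was at 569 ± 86.2 in A498 and 141 ± 38.1 in 786-O (1.92 ± 0.19). GPI, which converts glucose-6-phosphate to fructose-6-phosphate, was at 8441 ± 1156 in A498 and 2576 ± 214 in 786-O (1.70 ± 0.11). PGK1 was higher by 0.25 ± 0.11 (adjusted p = 0.045), a call lost under 10 of 22 alternatives, among them leaving out any of 786-O untreated replicates 1, 2 and 5 and A498 untreated replicates 1, 2 and 4. Dimmer probe sets of PGK1 gave 0.65, 0.64 and 0.54 (adjusted p = 0.000172, 8e-05 and 0.0431 in the fit over all probe sets). Further ones gave 0.23 and -0.04 (0.13 and 0.914), beside 0.25 (0.0558 in that fit) for the set used. The untreated 786-O tumours of the sorafenib arm set against those of the sunitinib arm gave 0 of 38 members called by limma (0.275% of all genes) and 4 at an unadjusted p under 0.05. The largest of these differences was HIF1A (0.79 ± 0.27, adjusted p = 0.2).

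**Figure D5:**
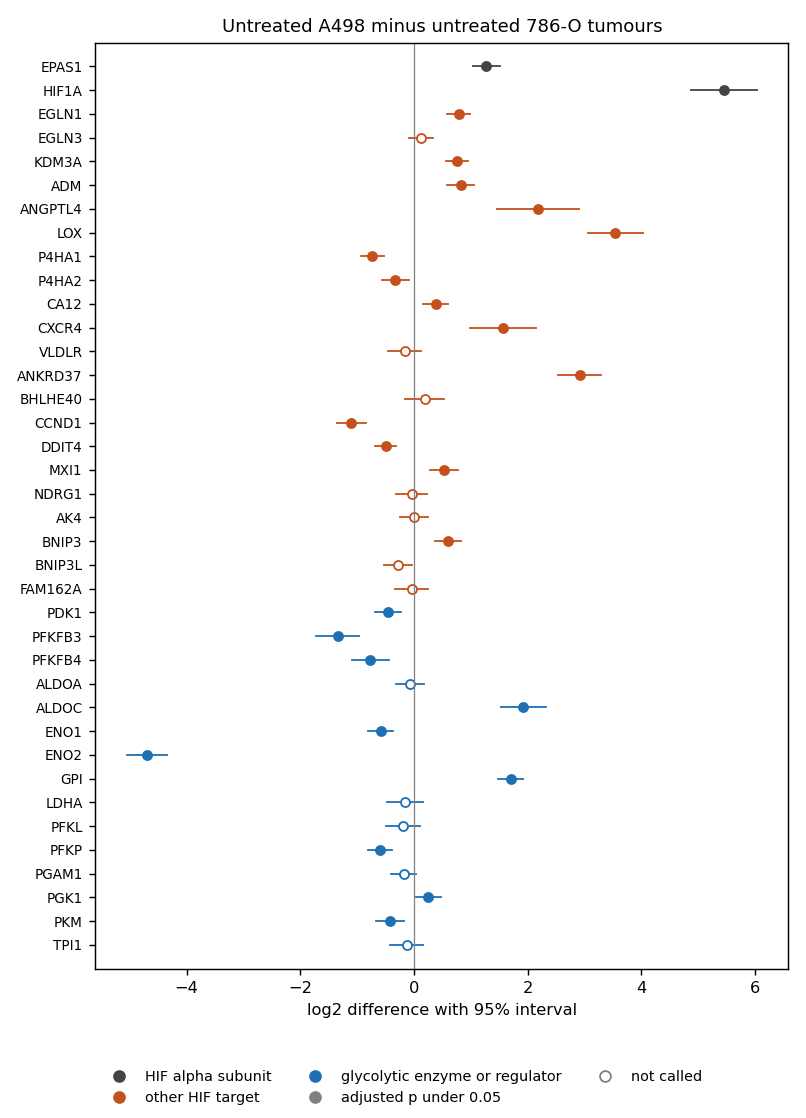
Log2 difference, untreated A498 minus untreated 786-O of the sunitinib arm, with its 95% interval for the 38 members; filled points have an adjusted p under 0.05. HIF1A lies at 5.45 and ENO2 at -4.70, and both HIF subunits are higher in A498.

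Further genes of the pathway, none of them members, moved as follows. Of 26 other HIF targets tested, 8 rose and 2 fell with sorafenib in 786-O (5.97% and 9.18% of all genes). They included SLC2A3, a glucose transporter (1.70 ± 0.19), ERO1A, an oxidase of the endoplasmic reticulum (0.89 ± 0.11), and HILPDA, a lipid droplet protein (0.86 ± 0.20), while PPP1R3C, a regulator of glycogen synthesis, fell (-0.81 ± 0.17). With sunitinib 3 rose and 0 fell, where 2.22% of all genes rose and 2.84% fell. These were SLC2A1, a glucose transporter (0.78 ± 0.12), LOXL2, a lysyl oxidase (0.58 ± 0.17), and VEGFA, the vascular growth factor (0.43 ± 0.11). In A498 1 rose and 0 fell (2.93% and 3.4% of all genes), the riser being TGFA, an EGF receptor ligand (0.77 ± 0.15). The median of these 26 was 0.18 with sorafenib and 0.19 with sunitinib in 786-O, and -0.0034 in A498.

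Of 18 further genes of glycolysis and pyruvate use, MPC2, a subunit of the mitochondrial pyruvate carrier, fell with sorafenib in 786-O (-0.89 ± 0.12) and PDP1, a phosphatase that activates pyruvate dehydrogenase, rose (0.50 ± 0.17). PDK3, a kinase that inhibits pyruvate dehydrogenase (-0.54 ± 0.11), and PDHA1, a subunit of that enzyme (-0.40 ± 0.09), fell with sunitinib. PKLR, the liver form of pyruvate kinase (-1.45 ± 0.32), and PDHA1 (-0.37 ± 0.09) fell in A498. Of 10 other components of the HIF pathway, ARNT2 fell with sorafenib in 786-O (-1.79 ± 0.44), and 0 were called in the other arms. Of 4 genes of gluconeogenesis, PCK2 rose in A498 (0.33 ± 0.10) and 0 were called in 786-O. These are 0 to 2 calls a list and arm, against 5.97% of all genes that rose and 9.18% that fell with sorafenib in 786-O, 2.22% and 2.84% with sunitinib and 2.93% and 3.4% in A498.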

How the data were processed

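RNA of 28 xenograft tumours had been measured on 1-colour Affymetrix arrays with 54675 probe sets. The deposited values are probe set intensity values on a linear scale, and RMA and MAS5 are listed, with no role given, in the submitters' processing notes. All arrays had the same 2% trimmed mean (500.06 to 500.07) and medians of 79.7 to 99.4. Within groups, Pearson's r of arrays across probe sets was 0.949 to 0.971. The genome build used is not given in the sources used here, and the number of arrays limits the precision.

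Groups came from the labels. Control probe sets (62) gave only the RNA quality values. Among the rest, 41097 had 1 symbol, 1801 several and 11715 none; 41043 of those with 1 symbol matched RefSeq by Entrez ID, 5 by symbol and 49 kept the platform's symbol. Values were used as log2(signal + 16), taking for each gene the brightest (on average) of its single-symbol probe sets. Genes above the median of all values (log2 6.72) on at least 4 arrays were tested, 13808 of 19775, leaving out 5967.

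All 28 arrays entered 1 limma 3.58.1 model (lmFit and eBayes, R 4.3.3) with a coefficient for each group, and the call threshold was a Benjamini-Hochberg adjusted p of 0.05. Class medians are descriptions without a test. Plots were made in Python 3.11.15 with matplotlib 3.10.9. The members, the other lists and the tests were chosen with earlier results of these data known. Every array's value is given for EPAS1, HIF1A, members called in at least 2 arms and the 3 largest called members of a class in an arm; of another list at most 4 called genes an arm are named. CXCR4, BNIP3 and the members listed with a difference alone fall outside that rule.

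The tests were repeated with a pseudocount of 1 or 64, without the filter or with it at the 75th percentile, with the mean over a gene's probe sets, without sets open to cross-hybridisation, with quantile normalisation or arrays centred on their median, with array weights, with a trended robust variance, with only the arrays of a comparison, with untreated 786-O tumours pooled, without the 2 arrays of highest ACTB difference, and without each array in turn.

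The model was tested on simulated data for 13808 genes. Fewer genes were shifted there than were called in any arm, so the rates need not hold for the arms. Log2 shifts of 1 came out as called in 80% (sorafenib, 786-O), 78% (sunitinib, 786-O) and 76% (sorafenib, A498) of cases, and shifts of 0.5 in 38%, 38% and 34%, with 7, 5 and 4 false calls.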

Additional observations from a re-analysis of the deposited data

Results flagged for a closer look

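The spread within groups was checked by Dixon's gap test for the 38 members in all 6 groups, 228 tests in all, of which 12 stood out; about 5% would do so by chance. In sorafenib-resistant 786-O tumours LOX was high in replicate 2 (1089, others 589 to 678), PFKFB4 in replicate 4 (888, others 470.0 to 508) and PGK1 in replicate 1 (18908, others 16046 to 16777). In sunitinib-resistant 786-O tumours AK4 was high in replicate 3 (8477, others 7515 to 7576) and GPI low in replicate 2 (2206, others 2538 to 2570). Untreated 786-O tumours of the sunitinib arm had low values in replicate 1 for ANKRD37 (239.5, others 346 to 383) and TPI1 (17150.5, others 19319.8 to 20203.5). Resistant A498 tumours had a high BHLHE40 in replicate 2 (8327, others 5046 to 5669) and a low CCND1 in replicate 5 (2876, others 3765 to 4143). Untreated A498 tumours had a low KDM3A in replicate 1 (1475, others 1809 to 1868) and, in replicate 3, a low NDRG1 (21960.1, others 29029 to 30327) and a low TPI1 (11269.5, others 19349 to 21471).

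The sorafenib effect differed between A498 and 786-O by the interaction term of the limma fit for 6 members, A498 effect minus 786-O effect: ANGPTL4 (-2.27), BHLHE40 (-0.95), CCND1 (-0.75), EPAS1 (-0.74), ADM (-0.59) and EGLN3 (-0.57). In A498 the resistant tumours lay above the untreated ones in mean for ANGPTL4, CCND1, EPAS1 and ADM and below them for BHLHE40 and EGLN3. In 786-O all 6 were higher in resistant tumours, and EGLN3 was called in neither line on its own. Array titles of these arms also differ in their leading number, so line and title number cannot be told apart.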

How the results depend on the processing

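No paired analysis was possible because replicate numbers were given in deposition order and pair no tumours. Of the members' single differences, recomputed under each alternative, 5596 kept their side of the threshold, 92 lost a call and 79 gained one. Those kept were called with the same sign in both fits, or called in neither, where the sign was not compared. Another 3 changed sign and were called in the main fit, the alternative or both. P4HA2 did so in untreated A498 against 786-O with the mean of probe sets (0.032). NDRG1 did so under quantile normalisation for the difference between lines (-0.34) and between untreated lines (0.22). The cause was not tested.

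Members that fell with sorafenib in 786-O were 0 with the mean of probe sets and 2 with pseudocount 64, the stricter filter, array weights, the trended variance or pooled untreated tumours. In A498 members that fell were 0 with only that comparison's arrays, 2 with the stricter filter, the mean of probe sets, quantile normalisation or the trended variance, and 3 with array weights; those that rose were 1 with the mean of probe sets or only the comparison's arrays. Members that rose with sunitinib were 0 with only that comparison's arrays. The drug difference had 2 higher and 1 lower with pooled untreated tumours. The line difference had 1 higher with pseudocount 1, the stricter filter, array weights, the trended variance or pooled untreated tumours, and 3 lower without the 2 arrays of highest ACTB difference. Untreated lines had 7 lower with the mean of probe sets. The glycolytic median with sunitinib was 0.045 with the mean of probe sets, 0.05 without cross-hybridising ones and 0.026 with quantile normalisation; with the mean of probe sets and sorafenib in 786-O it was 0.10, and that of other HIF targets 0.12. All genes called numbered 1233 for sorafenib in 786-O without the 2 ACTB arrays; 259 for sunitinib with its own arrays and 1326 with pooled untreated tumours; 1316 in A498 with array weights and 185 with its own arrays; 73, 852 and 51 for the drug difference without a filter, with pooled untreated tumours and without the ACTB arrays; and 458 for the line difference without the ACTB arrays.

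Leaving out each array gave 1579 to 1931 called genes for sorafenib in 786-O (10 members higher each time, 1 to 2 lower, medians -0.03 to 0.06 glycolytic and 0.15 to 0.26 other), 313 to 659 for sunitinib (2 to 10 higher, 0 lower, medians 0.066 to 0.21 and 0.18 to 0.31), 467 to 1020.0 in A498 (2 to 5 higher, 0 to 4 lower, medians 0.038 to 0.20 and 0.04 to 0.15), 64 to 171 for the drug difference (0 members), 506 to 746 for the line difference (0 to 1 higher, 5 to 8 lower) and 7566 to 7817 for untreated lines (14 to 15 higher, 10 to 12 lower). Small differences can be missed: 34% to 38% of simulated shifts of 0.5 were recovered, a rate that need not hold for the arms.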
